A study of Mus musculus with 4 samples.

Results

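Water channels (aquaporins) and carbonic anhydrases of the mouse colon epithelium were compared between sorted deep crypt secretory (DCS) cells and Lgr5+ cells. The genes were taken by symbol from a list of 10, of which 9 were found among the 14519 genes measured: the aquaporins Aqp1, Aqp4, Aqp8 and Aqp11 and the carbonic anhydrases Car1, Car2, Car4, Car8 and Car12. The listed gene Aqp3 was not analysed here. The 2 groups were Reg4+ DCS cells (called DCS cells below), sorted by a Reg4-dsRed reporter, and Lgr5+ cells, sorted by an Lgr5-GFP reporter, each in 2 libraries from separate rounds of sorting that the design text calls biological replicates. Each gate rests on the reporter of 1 gene, and the labels name no treatment. The sources used here do not give age, strain or the number of mice per sort.

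Aquaporins are membrane pores through which water follows salt across an epithelium. Carbonic anhydrases speed the conversion of carbon dioxide and water to bicarbonate and a proton, which the colon uses to exchange chloride for bicarbonate and sodium for protons, and to supply bicarbonate for the swelling of mucus. Deep crypt secretory cells are mucus-making cells that lie among the stem cells at the base of colon crypts, and absorptive colonocytes, which carry much of the salt and water uptake, mature toward the crypt mouth.

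RNA was read by CEL-seq, which tags 3′ ends, so that a level in RPM (reads of a gene per 1000000 reads of its library) does not scale with transcript length and can be set beside that of another gene. The Lgr5+ libraries held 5205723 and 7955340 reads, while DCS values had the form of means over 2 parts scaled separately, of 1890960 to 5523304 reads each. The 9 genes rested on 22 to 2662 reads per library. Both sort markers followed the labels: Reg4 averaged 6043 ± 204 RPM in DCS against 579.8 ± 306 RPM in Lgr5+ cells, and Lgr5 averaged 2.06 ± 1.52 RPM in DCS against 47.6 ± 1.62 RPM in Lgr5+ cells. All 15 goblet cell markers listed were called higher in DCS cells. They summed to 216900 and 147200 RPM in DCS, against 6877 and 2813 RPM in Lgr5+ cells. Errors here and below are SDs over n = 2 libraries. Over the 10183 genes tested, the median log2 fold change (DCS minus Lgr5+, on log2(RPM + 1)) was −0.47, so that changes are read against that shift as well as against 0.

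The aquaporins Aqp1 and Aqp4 and the carbonic anhydrases Car12 and Car1 were lower in DCS cells, by 8.49-fold to 14.9-fold in mean RPM. Since a sorted population was measured in bulk, fewer cells that express a gene and less RNA per cell cannot be told apart. With limma (adjusted p under 0.05 over all genes tested), 4 of the 9 genes were called, all of them lower in DCS cells, where 34.1% of all tested genes were called in either direction and 26.9% lower. Among all tested genes 731 were called higher and 2744 lower in DCS cells, a split that was 1591 and 1297 under median-of-ratios scaling, which brought the median log2 fold change of all genes to 0.02, and 1393 and 1362 with edgeR; the same 4 genes were called lower under both. None of the 9 was called higher in DCS cells (0 by limma, 0 by edgeR and 0 at an unadjusted p under 0.05, and 1, Aqp11, under median-of-ratios scaling), where 7.18% of all tested genes were. Of the 5 genes not called, Aqp8, Car4 and Car8 also had lower values in both DCS libraries than in both Lgr5+ libraries, Aqp11 had higher values, and Car2 overlapped. A gap between the groups was common in these libraries: 7 of the 9 genes had one with DCS lower, as did 56.2% of all tested genes, and 1 had one with DCS higher, as did 16.1%, together 72.3% of all tested genes. All 9 passed the filter (5 RPM in at least 2 libraries), 4 of them (Aqp8, Car4, Car8 and Car12) with a DCS library under 5 RPM.

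**Figure D1:**
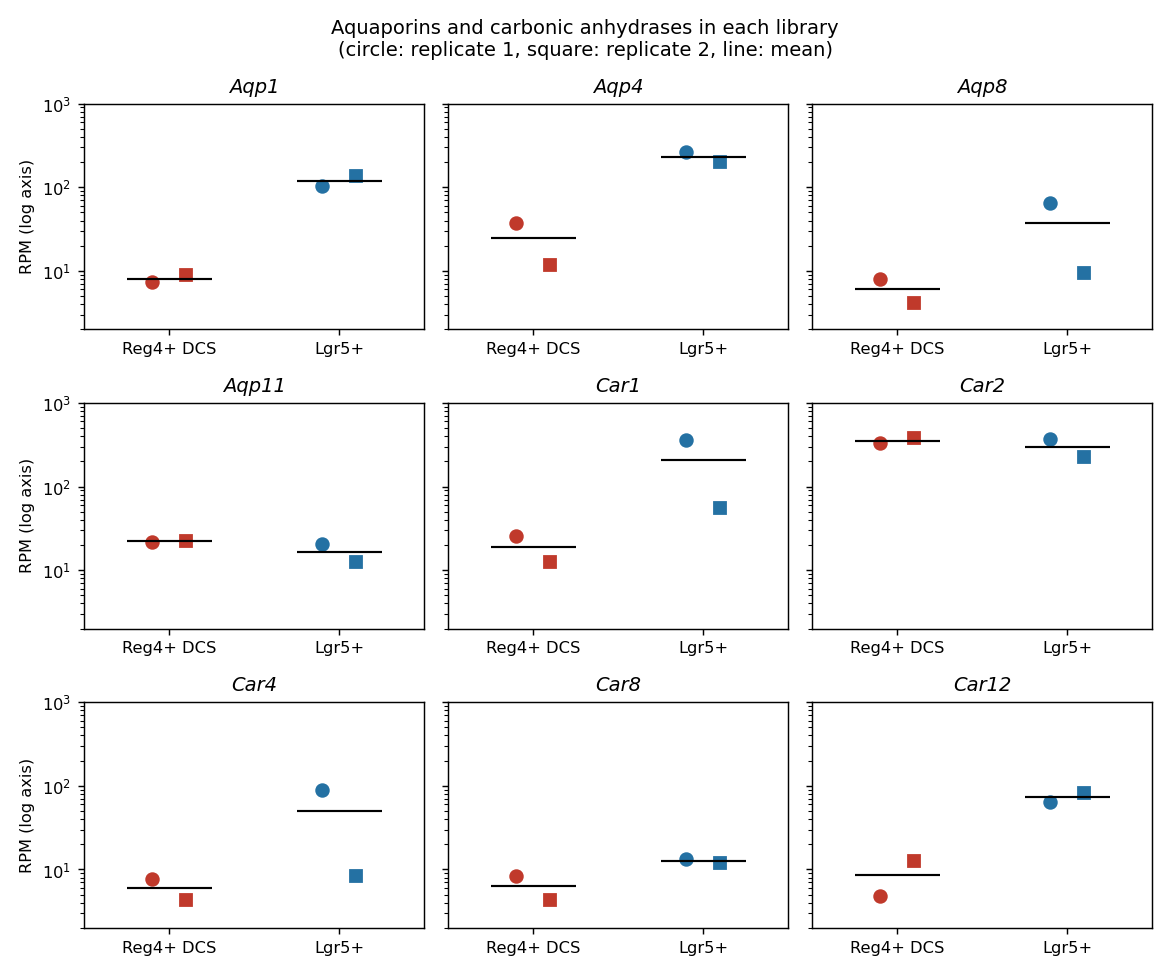
Each panel gives 1 gene, with RPM on a log axis for the 2 DCS libraries (red) and the 2 Lgr5+ libraries (blue); circles are replicate 1, squares replicate 2 and lines the means. Aqp1, Aqp4 and Car12 separate the groups with both replicates close in Lgr5+ cells, while Aqp8, Car1 and Car4 have 1 high Lgr5+ library, replicate 1.

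Aqp1, the water channel best known from red blood cells and vessel walls, lies on mm10 chromosome 6 (55336432 to 55348555, plus strand). It had 7.29 and 8.89 RPM in DCS, against 103 and 138 RPM in Lgr5+ cells. Both Lgr5+ libraries were thus well above both DCS libraries, and the replicates of each group lay close together. The means were 14.9-fold lower in DCS cells (log2 fold change −3.73, SE 0.27, limma adjusted p = 0.000174). Without any 1 library the ratio of means stayed between 12.7 and 17.0. Of 14 endothelial markers 7 were in the table, with a summed level of 4.98 and 8.07 RPM in DCS against 26.5 and 20.9 RPM in Lgr5+ cells. The defining endothelial marker Pecam1 was listed at 0 in both DCS libraries and stood at 0.576 and 0.251 RPM in Lgr5+ cells. Of the 7, 5 were listed at 0 in both DCS libraries, as were 1641 of all 14519 genes. The red cell marker Alas2, the first enzyme of heme synthesis in red cell precursors, had 0.453 and 0.166 RPM in DCS and was listed at 0 in both Lgr5+ libraries. The part of either cell type in the level of Aqp1 was not tested.

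The 3 tested genes with a pattern most like that of Aqp1 over the 4 libraries, by the Euclidean distance of log2(RPM + 1) values centred on each gene's mean, were Ces1d (distance 0.18), Cpn1 (0.19) and the entry Clca1 (0.19), an older symbol that another gene bears today. Ces1d, a carboxylesterase, had 1.41 and 2.30 RPM in DCS against 30.2 and 38.6 RPM in Lgr5+ cells. Cpn1, a carboxypeptidase subunit, was listed at 0 in both DCS libraries and had 10.4 and 13.6 RPM in Lgr5+ cells.

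Aqp4, the main water channel of brain glia and a basolateral channel of several epithelia (chromosome 18, 15389496 to 15410982, minus strand), was the most abundant aquaporin of Lgr5+ cells. It had 37.8 and 11.9 RPM in DCS, against 266 and 198 RPM in Lgr5+ cells. The groups did not overlap, but the DCS libraries differed 3.17-fold from each other, more than 99.3% of tested genes did on the log2 scale. In the means Aqp4 was 9.34-fold lower in DCS cells (log2 fold change −3.36, SE 0.46, adjusted p = 0.00162), and the ratio was 19.5 without DCS replicate 1 and 6.14 without replicate 2, with the call held in each case. An antisense gene overlaps Aqp4 on the opposite strand in the annotation, and the sources used here do not say whether counting used strand.

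Aqp8, a channel for water and hydrogen peroxide of surface colonocytes (chromosome 7, 123462291 to 123468004, plus strand), did not pass the test. It had 7.96 and 4.12 RPM in DCS, against 65.3 and 9.55 RPM in Lgr5+ cells, so that Lgr5+ replicate 1 was high and replicate 2 was close to the DCS values. The log2 fold change was −1.97 (SE 0.75, adjusted p = 0.0727). The mean was 6.20-fold higher in Lgr5+ cells, 1.58-fold without Lgr5+ replicate 1 and 10.8-fold without Lgr5+ replicate 2.

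Aqp11, an intracellular member of the family found in the endoplasmic reticulum (chromosome 7, 97724006 to 97738289, minus strand), did not pass the test. It had 21.9 and 22.4 RPM in the DCS libraries, and 20.6 and 12.4 RPM in Lgr5+ cells. The DCS libraries were nearly equal and lay above both Lgr5+ libraries. Its log2 fold change of 0.45 (SE 0.32, adjusted p = 0.298) lay 0.91 above the median of all tested genes, and it was called higher in DCS cells only under median-of-ratios scaling (0.93, adjusted p = 0.0439) among the 14 alternatives.

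Summed over the 4 aquaporins, the level was 61.2 ± 19.5 RPM in DCS cells and 406.5 ± 69.1 RPM in Lgr5+ cells. Aqp11 made up 29.2% and 47.4% of that sum in the DCS libraries and 4.51% and 3.48% in the Lgr5+ libraries. Aqp1 and Aqp4 together carried most of the sum in Lgr5+ cells, with Aqp4 at 58.5% and 55.3% and Aqp1 at 22.7% and 38.5%. Of 7 other aquaporin genes listed, 2 were in the table and both lay below the filter. Aqp12 had 0.619 and 1.19 RPM in the DCS libraries and was listed at 0 in both Lgr5+ libraries, and Aqp7, a glycerol channel, had 0.453 and 0.499 RPM in DCS against 1.54 and 1.01 RPM in Lgr5+ cells.

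**Figure D2:**
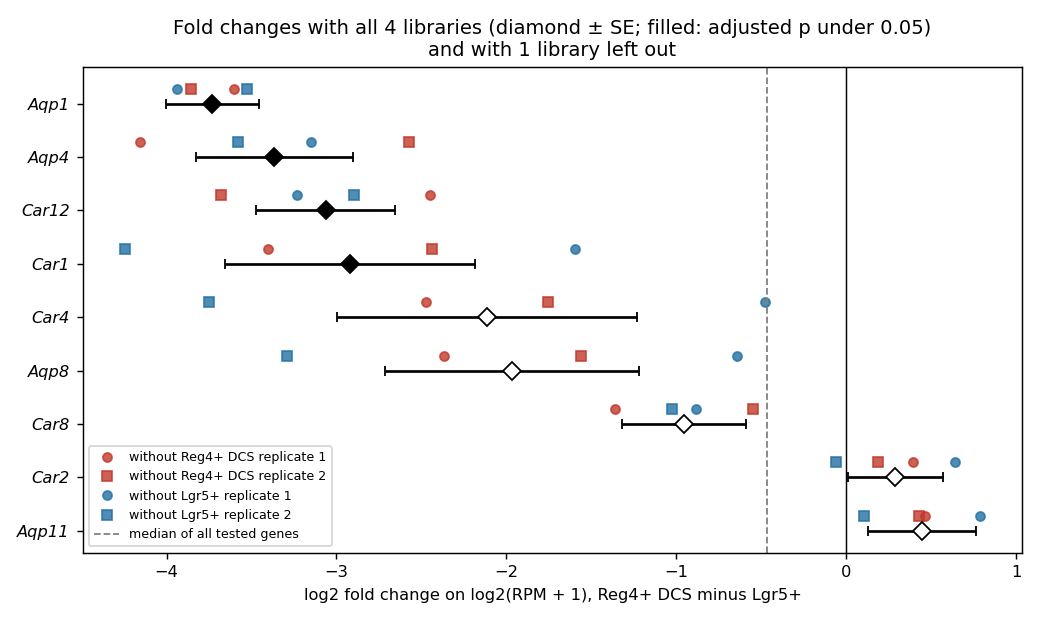
Log2 fold change on log2(RPM + 1), DCS minus Lgr5+, for each gene: diamonds are the fit to all 4 libraries with its SE (filled where the adjusted p was under 0.05), and coloured points are fits without 1 library. Without Lgr5+ replicate 1 the estimates of Aqp8 and Car4 move to −0.64 and −0.48, where the median of all genes in that fit is −0.38 (the dashed line, −0.47, is the median with all 4 libraries), while those of Aqp1, Aqp4 and Car12 stay below −2.

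Among the cytosolic carbonic anhydrases, Car2 and Car1 behaved differently. Car2, the high-activity enzyme of many secretory epithelia (chromosome 3, 14886273 to 14900770, plus strand), was the most abundant of the 9 genes in both populations. It had 329 and 380.0 RPM in DCS, against 369 and 226.5 RPM in Lgr5+ cells, so that Lgr5+ replicate 1 lay between the DCS libraries and replicate 2 below them. The log2 fold change was 0.29 (SE 0.28, adjusted p = 0.434), or 0.76 above the median of all tested genes, and it was −0.061 without Lgr5+ replicate 2. Its 1802 to 2662 reads per library were the most of the 9 genes.

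Car1, a low-activity cytosolic enzyme abundant in colon epithelium and in red cells, is a neighbour of Car2 on chromosome 3 (14766216 to 14808368, minus strand). It had 25.4 and 12.5 RPM in DCS, against 356.5 and 56.1 RPM in Lgr5+ cells. Both Lgr5+ libraries were above both DCS libraries, but the Lgr5+ libraries differed 6.36-fold from each other. The means were 10.9-fold lower in DCS cells (log2 fold change −2.92, SE 0.74, adjusted p = 0.0191). The ratio was 2.96 without Lgr5+ replicate 1, 18.8 without Lgr5+ replicate 2 and 16.5 without DCS replicate 1. Car1 no longer passed without DCS replicate 1 (adjusted p = 0.0707), without DCS replicate 2 (0.116) and with no filter on low values (0.0600), in a range of adjusted p from 2.34e-12 to 0.116 over the 14 alternatives. A processed pseudogene overlaps Car1 on the same strand in the annotation.

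The same cluster on chromosome 3 holds Car13 (14641727 to 14663002) and Car3 (14863512 to 14872523), cytosolic enzymes that both lay below the filter. Car13 had 1.52 and 0.780 RPM in DCS, against 9.60 and 3.65 RPM in Lgr5+ cells, with Lgr5+ replicate 1 the highest, as for Car1. Car3, best known from muscle and fat, had 0.989 and 0.780 RPM in the DCS libraries and was listed at 0 in both Lgr5+ libraries. Within 1 cluster, Car2 was thus the most abundant in both populations, Car1 differed between them, and Car3 and Car13 stayed under 10 RPM.

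Car8, a family member without catalytic activity that binds the inositol trisphosphate receptor (chromosome 4, 8143362 to 8239041, minus strand), had 8.30 and 4.29 RPM in DCS, against 13.3 and 11.9 RPM in Lgr5+ cells. The Lgr5+ libraries were the higher ones, and the log2 fold change of −0.95 (SE 0.37, adjusted p = 0.0745) did not pass. Relative to the median of all tested genes it was −0.49. Its DCS values rest on 61 and 23 reads. In the annotation a processed pseudogene overlaps Car8 on the same strand and a microRNA gene on the opposite strand.

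The membrane-bound carbonic anhydrases act outside the cell. Car12, a transmembrane enzyme with an extracellular active site (chromosome 9, 66713686 to 66766845, plus strand), had 4.75 and 12.5 RPM in DCS, against 64.5 and 81.8 RPM in Lgr5+ cells. Both Lgr5+ libraries were high and close to each other, and both DCS libraries were low, though 2.63-fold apart on 41 and 70 reads. Car12 was 8.49-fold lower in DCS cells (log2 fold change −3.06, SE 0.41, adjusted p = 0.0014), with a ratio of 5.86 without DCS replicate 1 and 15.4 without replicate 2.

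Car9, the other tumour-associated transmembrane enzyme and a textbook target of hypoxia, is not one of the 9 genes but was tested among 11 further carbonic anhydrases, of which 9 were in the table and 2 passed the filter. It had 12.5 and 17.6 RPM in DCS, against 52.3 and 48.1 RPM in Lgr5+ cells, 3.34-fold lower in DCS cells (log2 fold change −1.69, SE 0.28, adjusted p = 0.00346). An antisense gene overlaps Car9 on the opposite strand. Car15 (−0.39, adjusted p = 0.398) did not pass, and its difference turned to 0.046 under median-of-ratios scaling. A protein-coding gene overlaps Car15 on the same strand. Car5b and Car5a, the mitochondrial enzymes, and Car7, Car10 and Car11 lay below the filter, with no value above 5 RPM, and Car10 and Car11 were listed at 0 in both DCS libraries.

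Car4, an enzyme anchored to the apical membrane of absorptive cells (chromosome 11, 84957786 to 84966044, plus strand), had 7.71 and 4.27 RPM in DCS, against 90.3 and 8.42 RPM in Lgr5+ cells. Lgr5+ replicate 1 was high, and Lgr5+ replicate 2 lay just above the higher DCS library. The log2 fold change was −2.11 (SE 0.88, adjusted p = 0.0942), and the mean was 8.24-fold higher in Lgr5+ cells, 1.41-fold without Lgr5+ replicate 1 and 15.1-fold without Lgr5+ replicate 2.

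Summed over the 5 carbonic anhydrases, the level was 394.5 ± 26.9 RPM in DCS cells and 639 ± 360 RPM in Lgr5+ cells, and the DCS sums of 375.5 and 413.5 RPM lay on both sides of the 384.8 RPM of Lgr5+ replicate 2. Car2 alone was 87.7% and 91.9% of the sum in the DCS libraries, against 41.3% and 58.9% in the Lgr5+ libraries. In Lgr5+ replicate 1 the next largest share was that of Car1, at 39.9%, and in Lgr5+ replicate 2 that of Car12, at 21.3%.

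**Figure D3:**
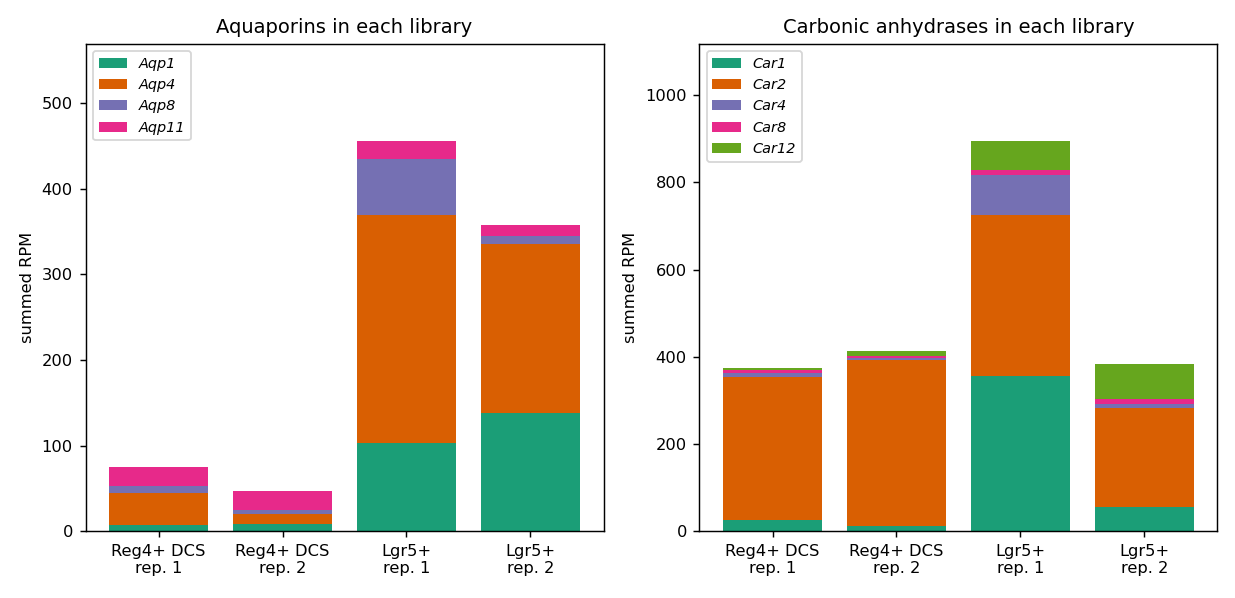
Bars stack the RPM of the 4 aquaporins (left) and of the 5 carbonic anhydrases (right) in each library, from 0. The aquaporin sums are 75.0 and 47.3 RPM in DCS and 455 and 358 RPM in Lgr5+ libraries, and most of each DCS carbonic anhydrase bar is Car2.

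In order of mean level, the genes of DCS cells were Car2, Aqp4, Aqp11, Car1, Car12, Aqp1, Car8, Aqp8 and Car4. Only Car2 stood apart from all the others beyond the spread of its libraries there. Aqp4, Aqp11 and Car1 overlapped one another, as did the 5 genes from Car12 down, and the higher library of Car12 reached the lower one of Aqp4. In Lgr5+ cells the order was Car2, Aqp4, Car1, Aqp1, Car12, Car4, Aqp8, Aqp11 and Car8. Car2, Aqp4 and Car1 overlapped there, and the wide range of Car1 also took in Aqp1 and Car12, of which Aqp1 was higher in both libraries. Car4 overlapped Car1, Car12, Aqp8, Aqp11 and Car8. Aqp8 overlapped Car1, Car12, Aqp11 and Car8, and Aqp11 overlapped Car8.

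The 9 genes differed in how far the Lgr5+ libraries agreed. Car4 was 10.7-fold, Aqp8 6.84-fold and Car1 6.36-fold higher in Lgr5+ replicate 1 than in replicate 2. On the log2(RPM + 1) scale these differences exceeded those of 99.9%, 99.8% and 99.8% of tested genes. Aqp1 and Car12 ran the other way, 1.34-fold and 1.27-fold higher in replicate 2, and Aqp4 was 1.35-fold and Car8 1.11-fold higher in replicate 1. Markers of absorptive colonocytes moved with the same library: of 26 in the table, which include Slc26a3 but none of the 9 genes, 25 were higher in Lgr5+ replicate 1, by a median of 3.07-fold, against 53.0% of all tested genes. Their summed level was 3992 and 3082 RPM in DCS, against 5493 and 2538 RPM in Lgr5+ cells. Tuft cell markers did so too, with 19 of 19 higher in Lgr5+ replicate 1. Their sums were 6.79 and 6.78 RPM in DCS against 1682 and 515 RPM in Lgr5+ cells. Of these markers, 13 (Pou2f3 and Gfi1b among them) were listed at 0 in both DCS libraries, as were 1641 of all 14519 genes. Of 8 leukocyte markers in the table, 7 were higher in Lgr5+ replicate 1, with sums of 1.71 and 1.37 RPM in DCS against 49.6 and 15.8 RPM in Lgr5+ cells, most of it Ptprc. Goblet cell markers were higher in Lgr5+ replicate 1 for 14 of 15, by a median of 1.84-fold, with sums of 6877 and 2813 RPM in the Lgr5+ libraries, and enteroendocrine markers for 11 of 14, with sums of 150.0 and 99.6 RPM there. Of 12 stem cell markers, 10 were instead higher in Lgr5+ replicate 2. Their sums ran the other way, at 2667 RPM in Lgr5+ replicate 1 and 2210 RPM in replicate 2. Sox9 had 1543 and 841 RPM of these. The part of these markers in the values of Car4, Aqp8 and Car1 was not tested. In the DCS libraries Car4, Aqp8 and Car1 were also higher in replicate 1, by 1.80-fold, 1.93-fold and 2.03-fold. So were 25.8% of all tested genes, Aqp4 and Car8 among them, while Aqp1, Aqp11, Car2 and Car12 were higher in DCS replicate 2. Without Lgr5+ replicate 1 the ratios of Aqp1, Aqp4 and Car12 were 17.0, 7.96 and 9.49. The part of these markers in the values of Aqp1, Aqp4 and Car12 was not tested either.

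**Figure D4:**
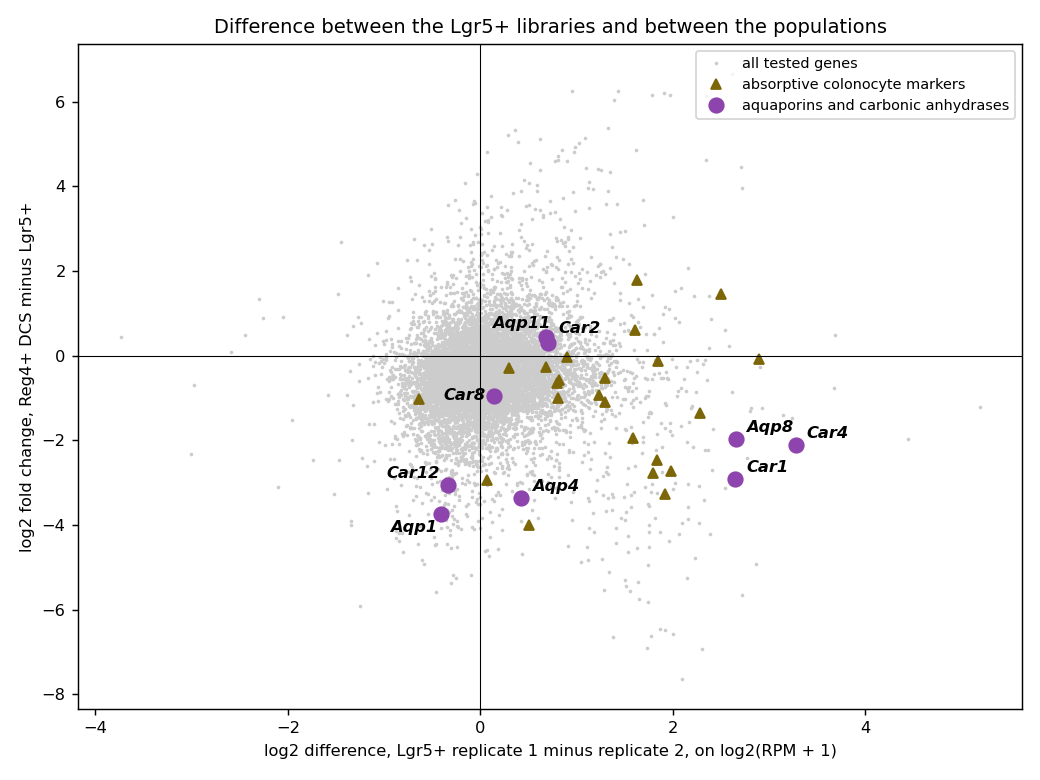
Each point is a tested gene, with the log2 difference between Lgr5+ replicates 1 and 2 on the x axis and the log2 fold change, DCS minus Lgr5+, on the y axis, both on log2(RPM + 1). Car4, Aqp8 and Car1 lie far to the right, beyond or among the absorptive colonocyte markers (triangles), while Aqp1, Aqp4 and Car12 lie near 0 on the x axis and below −3 on the y axis.

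The proximal promoters of genes on each side of this split are shown as RefSeq gives them (GRCm38.p6, the 250 bases before the RefSeq start, 5′ to 3′ on the gene's strand). The table of promoters held 5 of the 9 genes, and those printed are 2 that were called lower, Aqp1 at chr6:55336049-55336298 and Car12 at chr9:66713436-66713685, and 2 that were high in Lgr5+ replicate 1, Aqp8 at chr7:123462044-123462293 and Car4 at chr11:84957504-84957753, all on the plus strand. Capitals mark matches, on either strand, to ACGTG (the core of the hypoxia response element), TTTAT (the core of Cdx sites) and CTTTG (the core of Tcf/Lef sites).
Aqp1: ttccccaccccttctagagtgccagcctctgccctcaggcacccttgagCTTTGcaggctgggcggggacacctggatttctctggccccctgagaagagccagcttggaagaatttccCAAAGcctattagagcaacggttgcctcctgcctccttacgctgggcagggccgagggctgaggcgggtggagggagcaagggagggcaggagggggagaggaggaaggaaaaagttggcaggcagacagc
Car12: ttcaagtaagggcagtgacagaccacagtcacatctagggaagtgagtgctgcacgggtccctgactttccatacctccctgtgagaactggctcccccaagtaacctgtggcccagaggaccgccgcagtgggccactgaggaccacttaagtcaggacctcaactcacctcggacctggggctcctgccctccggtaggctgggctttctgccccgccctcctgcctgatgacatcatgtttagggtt
Aqp8: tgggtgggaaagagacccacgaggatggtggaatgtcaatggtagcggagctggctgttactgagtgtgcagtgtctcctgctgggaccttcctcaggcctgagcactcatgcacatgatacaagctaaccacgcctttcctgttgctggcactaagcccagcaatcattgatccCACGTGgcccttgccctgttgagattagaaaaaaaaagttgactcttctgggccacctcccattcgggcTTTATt
Car4: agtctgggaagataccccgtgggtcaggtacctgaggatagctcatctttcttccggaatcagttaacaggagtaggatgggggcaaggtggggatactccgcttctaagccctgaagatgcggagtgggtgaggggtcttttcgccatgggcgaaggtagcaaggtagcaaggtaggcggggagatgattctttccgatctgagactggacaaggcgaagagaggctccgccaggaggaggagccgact
Aqp1 held CTTTG once on each strand, 201 and 131 bases before the start. Aqp8 held ACGTG on both strands, 74 and 75 bases before the start, as 1 overlapping pair, and TTTAT 6 bases before the start. Car12 and Car4 held none of the 3 in this window. Of 32851 promoter windows of this length, 16.6% held ACGTG, 37.3% TTTAT and 48.6% CTTTG.

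Both parts of the DCS columns gave low levels for the genes called. In RPM of the part, Aqp1 stood at 5.07 and 9.52 in parts 1 and 2 of replicate 1 and at 6.32 and 11.5 in those of replicate 2, so that all 4 values lay below both Lgr5+ libraries. Aqp4 ranged more widely, at 26.4 and 49.2 RPM in replicate 1 and at 4.99 and 18.8 RPM in replicate 2, and was higher in part 2 each time. Car12 was higher in part 1 each time, at 6.34 RPM against 3.17 RPM in part 2 of replicate 1, on 35 and 6 reads, and at 16.0 RPM in part 1 of replicate 2. Car2 was also higher in part 1 each time, at 390.0 and 268.6 RPM in replicate 1 and 415 and 344.5 RPM in replicate 2. With part 1 or part 2 alone in place of their mean, a choice made after seeing the data, the same 4 genes were called lower.

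**Figure D5:**
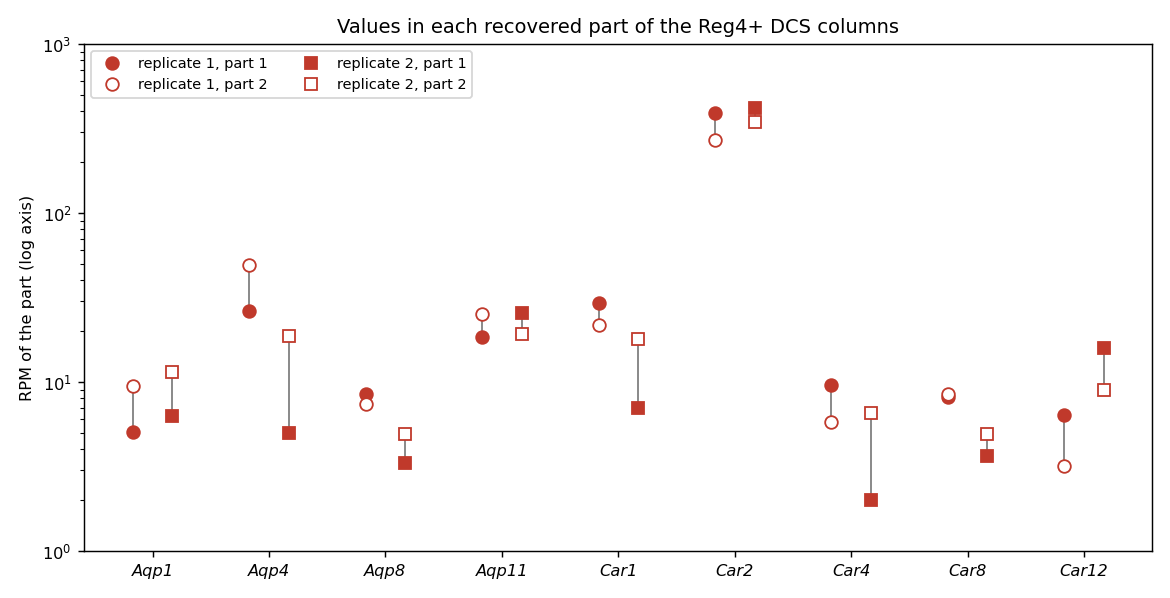
RPM (log axis) of each gene in part 1 (filled) and part 2 (open) of DCS replicates 1 (circles) and 2 (squares); the deposited value has the form of the mean of the joined pair. The parts of Aqp4 run from 4.99 to 49.2 RPM and those of Car2 from 268.6 to 415 RPM, above all the others.

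Transporters that use the bicarbonate and protons of carbonic anhydrases moved in both directions. Of 21 exchange and chloride genes in the table, 15 were tested, 4 rose and 6 fell in DCS cells (median log2 fold change −0.56). Best2, a bestrophin that conducts chloride and bicarbonate, was 66.8-fold higher in DCS cells (log2 fold change 5.32). Its Lgr5+ values of 1.73 and 1.13 RPM rest on 9 reads each, and the ratio was 55.3 to 84.5 without 1 library. Slc4a7, a sodium bicarbonate cotransporter that brings bicarbonate into the cell, averaged 168 ± 4.03 RPM in DCS cells and 40.1 ± 15.5 RPM in Lgr5+ cells (log2 fold change 2.09, adjusted p = 0.00174). Atp12a, the colonic proton-potassium pump, rose by 2.28 on the log2 scale (adjusted p = 0.0123). That call was lost without DCS replicate 1 (log2 fold change 1.89) and with DCS part 2 alone (adjusted p = 0.0516). The Atp12a ratio of 5.28 was 12.9 without Lgr5+ replicate 1 and 3.32 without Lgr5+ replicate 2. Cftr, the chloride and bicarbonate channel, averaged 5.11 ± 4.06 RPM in DCS cells and 88.6 ± 3.81 RPM in Lgr5+ cells (log2 fold change −4.05, adjusted p = 0.000684), 17.3-fold lower, or 39.5-fold without DCS replicate 2 and 11.1-fold without DCS replicate 1. Clcn2, a chloride channel, fell by 2.47 on the log2 scale. Slc26a3, the chloride bicarbonate exchanger of absorptive cells, had 17.7 and 8.67 RPM in DCS against 140 and 38.6 RPM in Lgr5+ cells, with Lgr5+ replicate 1 high as for Car4 (log2 fold change −2.47, adjusted p = 0.0134, and 0.0871 without DCS replicate 2); its ratio of 6.76 was 2.93 without Lgr5+ replicate 1, 10.6 without Lgr5+ replicate 2 and 10.3 without DCS replicate 1.

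Of 18 salt and water transport partners, 17 were tested, 7 rose and 5 fell (median log2 fold change 0.35), or 9 and 3 under median-of-ratios scaling. The largest rise was that of Hsd11b2, which shields the mineralocorticoid receptor from glucocorticoids (log2 fold change 4.34). Next were Kcnma1, a large-conductance potassium channel (3.66), and Guca2b, a peptide that stimulates fluid secretion (2.76). The ratio of Hsd11b2 was 18.7, or 33.6 without Lgr5+ replicate 1 and 13.0 without Lgr5+ replicate 2. That of Kcnma1 was 19.2, or 31.5 and 13.8, on 12 and 8 reads in the Lgr5+ libraries. The largest falls were those of the potassium channel genes Kcnq1 (−5.58), its partner Kcne3 (−2.74) and Kcnn4 (−2.09). Of 9 osmotic and hypoxic response genes tested, 1 rose (Ndrg1, a gene induced by hypoxia, 3.42) and 1 fell (Nfat5, the osmotic response factor, −0.95, adjusted p = 0.0292), or 2 and 0 under median-of-ratios scaling. The call of Nfat5 was lost under median-of-ratios scaling (adjusted p = 0.17), with edgeR (0.153) and with DCS part 1 alone (0.0871). It was also lost without DCS replicate 1 (log2 fold change −0.77) and without Lgr5+ replicate 1 (−0.80). Over all tested genes the median was −0.47, and these 3 lists were read only as counts beside the shares of all genes called higher (7.18%) and lower (26.9%).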

How the data were processed

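RNA was measured in 4 libraries, 2 from Reg4+ DCS and 2 from Lgr5+ sorts, by CEL-seq with 50 bp paired-end reads, per the labels' protocols. BWA 0.6.2-r126 and the build mm10 are named in the submitters' processing notes. The sources used here do not give the counting, annotation, strand use, molecular identifiers or filters. The authors deposited 1 table of RPM for 14519 genes, and each column sums to 1000000.

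Whole reads were recovered from the RPM steps: 100% of values in both Lgr5+ columns were whole within 0.01 reads. The Reg4+ DCS columns were solved as the mean of 2 parts for 99.9% and 98.6% of genes, the 9 genes included. Of all genes, 1120 had reads in part 1 alone of the Reg4+ DCS columns and 181 in part 2 alone; none of the 9 was among them.

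Genes with at least 5 RPM in at least 2 libraries (10183) were tested on log2(RPM + 1) with limma 3.58.1 in R 4.3.3 (eBayes with trend, group as the only term) and called where the Benjamini-Hochberg adjusted value was under 0.05. Such fold changes understate low genes. Ratios are of mean RPM, with no further scaling. The alternatives were edgeR 4.0.16 on recovered reads (which called 2755 genes), and limma with other pseudocounts, filters or scaling, without the trend, with a replicate block, with each library left out and with either part of the Reg4+ DCS columns. Decoding and test were tested on simulated data. With 2 libraries per group, p-values rest on the spread between those libraries only, drawn for each gene toward a trend over all tested genes. That spread may be partly technical. The genes, lists and rules were chosen with earlier results of these data known. Named partner genes are the called genes with the 3 largest log2 fold changes per direction and list; other marker genes named define a cell type. Coordinates are from GENCODE M21 (GRCm38, the assembly of mm10). Some marker genes, and the sums of the red cell and the glial marker lists, are not reported here.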

Additional observations from a re-analysis of the deposited data

How the results depend on the processing

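Each result was recomputed with 14 other settings, 2 of them chosen after seeing the data. Over the 9 genes, 116 of these fits held the direction and side of the threshold, 6 gained a call, 3 lost one and 1 reversed, and 3 to 6 genes were called without 1 library. Aqp1, Aqp4 and Car12 were called lower in all 14, with log2 fold changes from −4.17 to −3.25, −4.17 to −2.57 and −3.68 to −2.45. Car1 kept its fold change (−2.92) with no filter but lost its call, as it did without either Reg4+ DCS library (−4.24 to −1.60 without 1 library, adjusted p from 2.34e-12 to 0.116); with no filter its SE was 0.87, against 0.74, and the cause was not tested. Without Lgr5+ replicate 2, Aqp8 and Car4 were called (−3.29 to −0.64 and −3.75 to −0.48 without 1 library), a fit in which the remaining Lgr5+ library is assumed to vary like the Reg4+ DCS libraries. Car2 ranged from −0.061 to 0.64 without 1 library, reversed without Lgr5+ replicate 2. It was 0.80 under median-of-ratios scaling (limma adjusted p = 0.0523) and 0.77 with edgeR (adjusted p = 0.0774), not called in either. Aqp11 was 0.93 and called under median-of-ratios scaling, which moved the median of all genes from −0.47 to 0.02 and the split of calls to 1591 higher and 1297 lower, against 731 and 2744; edgeR gave 1393 and 1362. Car15 turned to 0.046 under that scaling.

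The replicate numbers are shared between the groups, but no source says that they mark a shared round. The deviations of same-numbered libraries correlated at 0.21 across genes. With the replicate block 7 of the 9 genes were called, adding Aqp8 (−1.97), Car4 (−2.11) and Car8 (−0.95), and 4444 genes in all.

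The count of all genes called (3475) was 1419 to 2637 without 1 library, lowest without Reg4+ DCS replicate 1 (2132 without Lgr5+ replicate 2). The 1 call among further carbonic anhydrases became 3 with a filter of 1 RPM and 4 with none, as more genes were tested. Calls among salt and water partners (12) were 6 to 11, and those among osmotic and hypoxic genes (2) 1 to 3, without 1 library; that list gave 0 with Reg4+ DCS part 1 alone and 1 with part 2, where 8 of its genes were tested. Genes under about 10 RPM, such as Car8, rest on few reads and show only large differences.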
